A study of Mus musculus with 20 samples.

Results

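miR-370 is a microRNA of the Dlk1-Dio3 imprinted domain, and both arms of its hairpin were followed here in cultured mouse cortical neurons. Its members are the rows named mmu-miR-370-3p and mmu-miR-370-5p (miR-370-3p and miR-370-5p from here on), 2 of the 1481 miRNA names in the deposited tables, and both were present in all 6 tables. They were picked by name and because miR-370 is abundant in these libraries, so its rank among miRNAs is a description and no finding. The neurons came from mouse cortex at embryonic day 15 and had been in culture for 7 days. Small RNA libraries were made from such cultures, and the study describes the 5 libraries of a group as biological replicates without saying whether they came from separate litters.

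The study combined genotype with treatment, which gave 4 groups of 5 libraries. Wild-type neurons and neurons lacking the circular RNA ciRS-7 (ciRS-7 KO) were kept for 12 h either in normoxia or in oxygen and glucose deprivation (OGD), a culture model of ischemia. Normoxic medium received 25 mM glucose and 0.2 mM pyruvate, and those cultures went back to the incubator (5% CO2, 37 °C). OGD medium lacked these additions, and those cultures stayed in a hypoxic chamber at 1% O2, 5% CO2 and 37 °C. All 4 groups carry the same strain label, C57BL/6N-Cdr1asem1Nikr, and differ in the genotype label, WT or ciRS-7 KO. OGD removes oxygen, glucose and pyruvate together, so the parts of the treatment cannot be told apart. The tables list mature miRNAs and no circular RNA, so the knockout itself was not checked here.

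The Dlk1-Dio3 domain is controlled by parental imprinting: protein-coding genes such as Dlk1, Rtl1 and Dio3 are expressed from the paternal chromosome, and the noncoding RNAs Meg3, Rtl1 antisense, Rian and Mirg from the maternal one. Many miRNA hairpins are cut from these noncoding transcripts, and several of them are brain-enriched. Drosha and Dicer trim a hairpin to a short duplex, usually one arm is kept in an Argonaute protein, and bases 2 to 8 of that arm, the seed, pair with target mRNAs. ciRS-7, also called Cdr1as, is a brain circular RNA known for its many binding sites for miR-7.

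The sequences are shown because the 2 arms come from one hairpin, differ widely in level and carry unrelated seeds. They are RefSeq entries for build GRCm38.p6, written 5′ to 3′, with the seed in capitals for the mature arms and both mature arms in capitals for the hairpin. The last line is the mature sequence, with its seed in capitals, that shares a seed with an arm of miR-370.
miR-370-3p: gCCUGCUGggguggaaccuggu
miR-370-5p: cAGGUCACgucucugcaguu
Mir370 hairpin: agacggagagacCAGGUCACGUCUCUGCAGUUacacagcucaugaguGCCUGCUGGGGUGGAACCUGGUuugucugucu
miR-1193-3p: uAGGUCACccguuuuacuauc

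The hairpin has 79 bases and lies on the plus strand at chr12:109618258-109618336. miR-370-5p is its bases 13 to 32 (20 bases, 55.0% G or C), and miR-370-3p its bases 48 to 69 (22 bases, 68.2% G or C). In the GENCODE annotation of the same build, 2 of the 20 Rian transcripts span the hairpin, and in both of them it is intronic. Meg3 ends 46.5 kb upstream and Rtl1, on the other strand, 17.9 kb upstream. Mir341 and Mir1188, the other hairpins assigned to the Rian part, end 6.66 kb and 6.32 kb upstream, and the nearest listed hairpin downstream, Mir379, starts 90.7 kb away. Among 1679 mature mouse names in the RefSeq table, 0 others carry the miR-370-3p seed, and 1 other carries the miR-370-5p seed: miR-1193-3p, whose hairpin is on the Mirg side of the same domain.

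miR-370-3p was the arm that accumulated, and its level fell in OGD in both genotypes, to 0.449 times the normoxic mean in wild-type and 0.447 times in ciRS-7 KO neurons. Levels are in CPM, the reads of a miRNA per 1000000 reads of the library's effective total. CPM counts only reads given to named miRNAs, and ligation and PCR can favour one sequence over another, so levels of different miRNAs describe the libraries. In wild-type normoxia the 5 libraries held 6723, 5732, 5365, 6675 and 7028 CPM of miR-370-3p, a mean of 6305 ± 715 (SD, n = 5). In wild-type OGD they held 2911, 2493, 2644, 3091 and 3025 CPM, a mean of 2833 ± 255 (SD, n = 5). Every wild-type OGD library lay below every normoxic one, and the highest OGD library was well under the lowest normoxic library. In all, 2.57% of the 1478 miRNAs tested showed that full separation with OGD lower.

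In ciRS-7 KO neurons the same arm stood at 7090, 6289, 5715, 5840 and 5766 CPM in normoxia, a mean of 6140 ± 578 (SD, n = 5). In ciRS-7 KO neurons under OGD it stood at 2867, 3229, 2255, 2798 and 2570 CPM, a mean of 2744 ± 361 (SD, n = 5). The knockout groups did not overlap either, a separation that 3.79% of the 1479 miRNAs tested showed with OGD lower. The order of the group means was wild-type normoxia, ciRS-7 KO normoxia, wild-type OGD and ciRS-7 KO OGD. The first pair and the last pair of that order differed by less than 1 SD, and only the step from normoxia to OGD exceeded the spread.

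**Figure D1:**
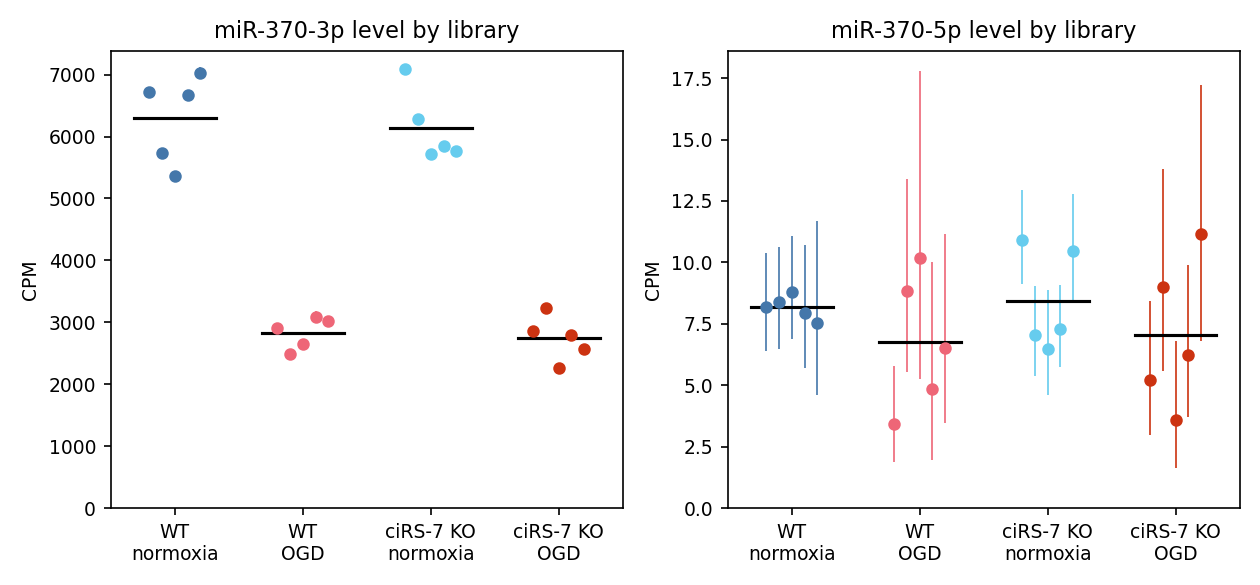
Level of miR-370-3p (left) and miR-370-5p (right) in CPM (y axes, linear from 0) in each of the 5 libraries per group (x axes); points are libraries in replicate order, thin bars are exact 95% Poisson intervals for counting error (smaller than the points on the left), and black lines are group means. The OGD libraries of miR-370-3p lie between 2255 and 3229 CPM and all normoxic ones between 5365 and 7090 CPM, while the miR-370-5p groups overlap.

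On the log2(CPM + 0.5) scale, the OGD effect on miR-370-3p was -1.15 in wild-type neurons (SE 0.10, 95% interval -1.36 to -0.94, limma adjusted p = 2.3e-07 over all 1478 miRNAs of the table). In ciRS-7 KO neurons the effect was -1.17 (SE 0.10, 95% interval -1.37 to -0.96, limma adjusted p = 1.6e-07 over 1479 miRNAs). The fall passed the test in both genotypes. As background, 23.1% of the miRNAs tested passed in wild-type neurons, 4.4% as lower and 18.7% as higher, and in ciRS-7 KO neurons 24.5% passed, 5.75% as lower and 18.8% as higher. In bulk libraries, fewer cells of a type and less RNA per cell cannot be told apart.

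miR-370-3p was among the miRNAs with the larger decreases. Of the 425 miRNAs with a mean of at least 3 on the log2 scale in the wild-type comparison, 6 had a larger decrease than miR-370-3p. They were miR-409-3p and miR-410-5p of the domain and, from elsewhere, miR-671-3p, miR-26a-2-3p, miR-148a-5p and let-7c-1-3p. Of 420 in the ciRS-7 KO comparison 5 did, with miR-296-5p in and miR-148a-5p and miR-26a-2-3p out. Most of the miRNAs in this count were far less abundant than miR-370-3p. At a mean of at least 10 on that scale, a limit chosen after the values were seen, 0 of 71 wild-type and 0 of 72 ciRS-7 KO miRNAs had a larger decrease, but miR-409-3p, at a mean of 9.85, lies just under that limit. Over the 20 libraries miR-370-3p averaged 4505 CPM, which placed it at rank 30, and its rank went from 25 in both normoxic groups to 41 in wild-type OGD and 43 in ciRS-7 KO OGD. The miRNAs next to it in that order had other effects: miR-124-3p, a neuronal miRNA at 4520 CPM, changed by 0.74 and 0.56 (limma adjusted p = 3.8e-05 and 0.00011), and let-7j, at 4392 CPM, by -0.02 and 0.24 (limma adjusted p = 0.912 and 0.16).

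The size of the decrease, but not its direction, depended on how libraries were scaled. Most called miRNAs were higher in OGD on the CPM scale. Centring every library on its median miRNA shifted the OGD effect of all miRNAs by 0.56 in wild-type and 0.51 in ciRS-7 KO neurons. Median-of-ratios size factors shifted that of miR-370-3p by 0.28 and 0.29, an amount that need not hold for miRNAs with few reads. The effect on miR-370-3p became -1.71 and -1.68 with centring, and -1.43 and -1.46 with size factors. Not every setting enlarged it: over all 12 other settings the smallest fall was -1.14 in wild-type and -1.16 in ciRS-7 KO neurons. The split of calls moved with the scaling: 276 higher and 65 lower in wild-type neurons became 108 higher and 265 lower with centring, and 278 higher and 85 lower in ciRS-7 KO neurons became 112 higher and 324 lower. With size factors most calls stayed higher, at 189 higher and 126 lower in wild-type and 175 and 160 in ciRS-7 KO neurons. Quantile normalization gave 141 and 191, and 141 and 186.

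Loss of ciRS-7 was not accompanied by a detected change in miR-370-3p. Between genotypes the difference, ciRS-7 KO minus wild type, was -0.04 in normoxia (95% interval -0.24 to 0.17, limma adjusted p = 0.990) and -0.05 in OGD (95% interval -0.25 to 0.15, limma adjusted p = 0.956). The groups overlapped in both conditions. The OGD effects of the 2 genotypes differed by -0.02 (SE 0.14, 95% interval -0.30 to 0.27, limma adjusted p = 0.990), and the data leave differences anywhere in that interval possible. Among 1481 miRNAs, 0.0% passed in each of these 3 comparisons, with 47, 108 and 74 at an unadjusted p under 0.05 and 0 with limma voom in each. Without ciRS-7 KO OGD replicate 5, 22 miRNAs passed between the genotypes in OGD, miR-370-3p not among them.

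miR-370-5p, the arm with few reads, had no OGD effect that passed the test on the CPM scale. In wild-type normoxia it measured 8.20, 8.37, 8.79, 7.93 and 7.56 CPM (mean 8.17 ± 0.464, SD, n = 5), from 20 to 71 reads a library. In wild-type OGD it measured 3.44, 8.84, 10.2, 4.87 and 6.53 CPM (mean 6.77 ± 2.77, SD, n = 5), from 7 to 22 reads. The groups overlapped: OGD replicates 1, 4 and 5 were below every normoxic library, and replicates 2 and 3 were above every one. In ciRS-7 KO neurons the normoxic libraries held 10.9, 7.05, 6.48, 7.29 and 10.5 CPM (mean 8.43 ± 2.07, SD, n = 5), from 38 to 131 reads. The ciRS-7 KO OGD libraries held 5.20, 9.02, 3.59, 6.25 and 11.1 CPM (mean 7.04 ± 3.03, SD, n = 5), from 9 to 21 reads, and also overlapped the normoxic ones.

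The OGD effect on miR-370-5p was -0.34 in wild-type neurons (SE 0.26, 95% interval -0.90 to 0.21, limma adjusted p = 0.384) and -0.31 in ciRS-7 KO neurons (SE 0.27, 95% interval -0.87 to 0.25, limma adjusted p = 0.443). Neither passed the test. Both intervals include no change and extend to -0.90 and -0.87, short of the miR-370-3p intervals, whose upper ends were -0.94 and -0.96. The value also moved with single OGD libraries, without passing: it was -0.15 without wild-type OGD replicate 1 and -0.51 without replicate 3, and -0.11 without ciRS-7 KO OGD replicate 3 and -0.49 without replicate 5. The call turned with the scaling. After centring each library, the effects were -0.90 and -0.82 (limma adjusted p = 0.0144 and 0.0166), and with quantile normalization -1.01 and -0.87 (limma adjusted p = 0.0123 and 0.0327). With median-of-ratios size factors they were -0.60 and -0.58 and did not pass (limma adjusted p = 0.117 in both). The OGD libraries were mostly the shallower ones, with 1160582 to 4374002 reads against 2492065 to 12477032 in normoxia. With every library thinned to the shallowest, the effects on miR-370-5p were -0.25 and -0.18 and did not pass. Between genotypes miR-370-5p differed by 0.01 in normoxia (95% interval -0.35 to 0.38, limma adjusted p = 1.0) and by 0.05 in OGD (95% interval -0.60 to 0.69, limma adjusted p = 0.988), and its OGD effect by 0.03 (95% interval -0.75 to 0.81, limma adjusted p = 0.990).

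The ratio of the arms within a library does not use the library total and so is free of the scaling. miR-370-3p made up 99.87%, 99.75%, 99.86% and 99.75% of the reads of both arms on average in wild-type normoxia, wild-type OGD, ciRS-7 KO normoxia and ciRS-7 KO OGD. In wild-type normoxia there were 1.22, 1.46, 1.64, 1.19 and 1.08 miR-370-5p reads per 1000 miR-370-3p reads (mean 1.32 ± 0.228, SD, n = 5). In wild-type OGD there were 1.18, 3.54, 3.85, 1.57 and 2.16 (mean 2.46 ± 1.19, SD, n = 5). Replicates 2, 3 and 5 of the OGD group were above every normoxic library, and replicates 1 and 4 fell within the normoxic range.

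In ciRS-7 KO normoxia the ratios were 1.54, 1.12, 1.13, 1.25 and 1.81 per 1000 (mean 1.37 ± 0.299, SD, n = 5), and in ciRS-7 KO OGD they were 1.81, 2.79, 1.59, 2.23 and 4.34 (mean 2.55 ± 1.10, SD, n = 5). Here 4 OGD libraries stood above every normoxic one, replicate 1 by the narrowest margin, and replicate 3 did not. The share of miR-370-3p was lower in OGD by 0.114 percentage points in wild-type neurons (exact two-sided permutation p = 0.0714, adjusted over 4 comparisons 0.143) and by 0.118 points in ciRS-7 KO neurons (exact two-sided permutation p = 0.0159, adjusted 0.0635). The smallest p that 5 against 5 libraries allow is 0.00794, and neither difference passed after adjustment. These tests treat the libraries as unpaired. Taken by replicate number, the ratio was higher in OGD for every ciRS-7 KO number and for every wild-type number except replicate 1. Whether a number pairs libraries is not known, and no paired test was run. Each passed in one of the fits that leave out a library: the adjusted exact permutation p was 0.0317 without wild-type OGD replicate 1 and 0.0317 without ciRS-7 KO OGD replicate 3. Without ciRS-7 KO OGD replicate 5 the difference shrank to -0.0735 points (adjusted exact permutation p = 0.127). With every library thinned to the shallowest, the differences were -0.117 and -0.114 points (adjusted exact permutation p = 0.222 and 0.238). Between genotypes the shares differed by less than their spread (exact permutation p = 0.746 in normoxia and 0.913 in OGD, both 0.913 after adjustment).

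**Figure D2:**
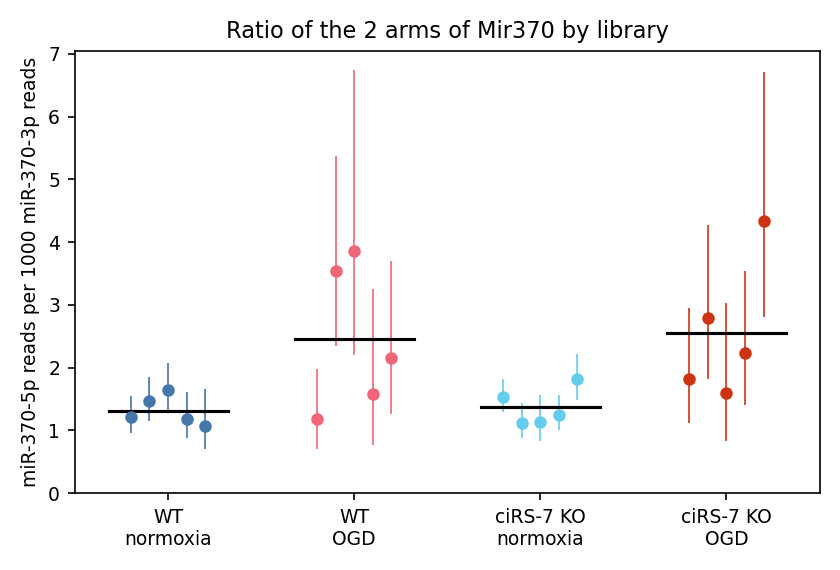
Reads of miR-370-5p per 1000 reads of miR-370-3p (y axis, linear from 0) in each of the 5 libraries per group (x axis); points are libraries in replicate order, thin bars are 95% Wilson intervals of the share turned into the ratio, and black lines are group means. The normoxic libraries lie between 1.08 and 1.81, and the OGD libraries spread from 1.18 to 4.34 with wider intervals from fewer reads.

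Within the domain, miR-370-3p held a smaller share of the reads in OGD. The 107 miRNA names of the domain, from a list of names, comprised 27 from the Meg3 and Rtl1 antisense side, 6 from the Rian part and 74 from the Mirg side. Together they held 6.69% of wild-type normoxic CPM, 5.71% in wild-type OGD, 6.64% in ciRS-7 KO normoxia and 5.46% in ciRS-7 KO OGD. miR-370-3p made up 9.41% ± 0.813 of the domain's CPM in wild-type normoxia and 4.97% ± 0.254 in wild-type OGD (SD, n = 5). In ciRS-7 KO neurons the shares were 9.24% ± 0.590 and 5.01% ± 0.442 (SD, n = 5). The normoxic libraries lay at 8.34% or above and the OGD libraries at 5.61% or below, so the groups did not overlap on this scale, which also does not depend on the library total.

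By mean CPM, miR-370-3p was number 4 of the 107 domain miRNAs in both normoxic groups, number 6 in wild-type OGD and number 7 in ciRS-7 KO OGD. The 3 above it in normoxia had OGD effects nearer to 0. miR-127-3p, which is cut from the Rtl1 antisense transcript, was the most abundant, with an OGD effect of -0.31 in wild-type and -0.40 in ciRS-7 KO neurons (limma adjusted p = 0.0314 and 0.00096). miR-381-3p, from the Mirg side and second in level, had effects of 0.07 and 0.02 (limma adjusted p = 0.747 and 0.861). miR-434-5p, the third, had effects of -0.36 and -0.50, of which the ciRS-7 KO one passed (limma adjusted p = 0.0791 and 0.00032).

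**Figure D3:**
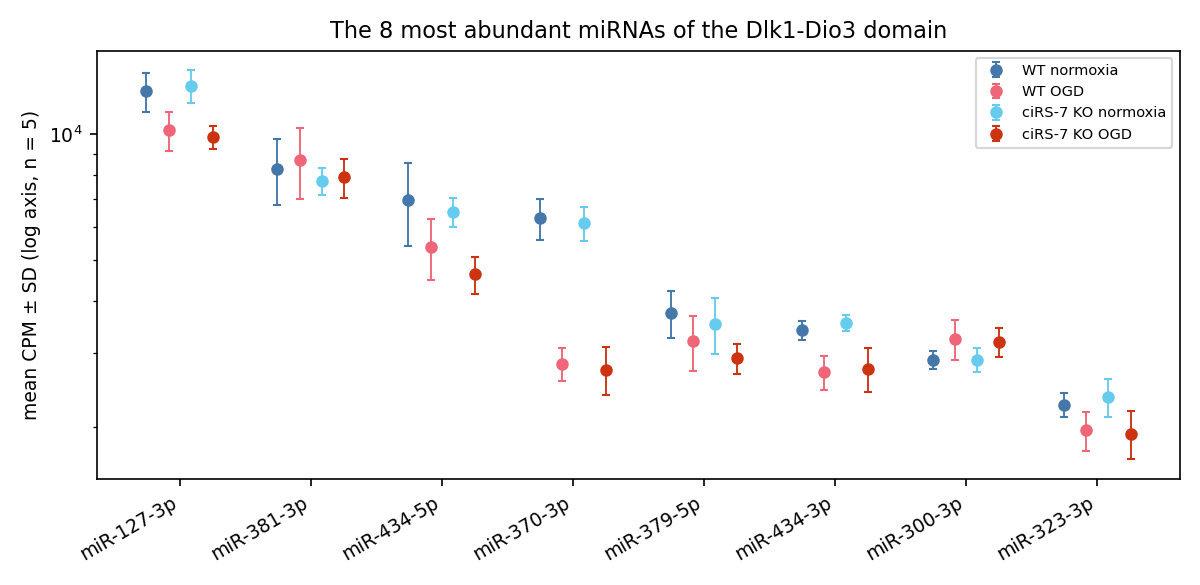
Mean level in CPM (y axis, logarithmic) of the 8 most abundant miRNAs of the Dlk1-Dio3 domain (x axis, by falling mean over all libraries) in the 4 groups; bars are SD over 5 libraries. miR-370-3p has group means of 6305 and 6140 CPM in normoxia and of 2833 and 2744 CPM in OGD, the widest gap of the 8 shown.

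The domain did not move as one block. In wild-type neurons 21 of its 107 members passed as higher, 14 as lower and 72 did not pass, a split that turned to 8 higher and 42 lower with centred libraries, 8 and 31 with quantile normalization and 10 and 27 with median-of-ratios size factors. In ciRS-7 KO neurons 23 passed as higher, 18 as lower and 66 did not pass, and the split turned to 8 higher and 50 lower, 8 and 37, and 11 and 35 under the same 3 scalings. The shares passing as higher were 19.6% and 21.5% in wild-type and ciRS-7 KO neurons, beside 18.7% and 18.8% of all miRNAs tested, and those passing as lower were 13.1% and 16.8%, beside 4.4% and 5.75%. Many of all miRNAs tested have few reads, and at a mean of at least 3 the gap in lower calls was smaller: 13 of 65 domain miRNAs (20%) against 13.4% of 425 in wild-type and 23.8% of 63 against 16.7% of 420 in ciRS-7 KO neurons. At that level 26.2% and 27.0% of the domain passed as higher, against 33.9% and 36.9% of all. The median OGD effect over the domain was 0.16 in wild-type and 0.01 in ciRS-7 KO neurons, beside 0.32 and 0.24 over all miRNAs tested. Between genotypes, 0 of the 107 passed in normoxia and 0 in OGD.

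The Rian part holds the hairpins closest to Mir370, and 1 of its other arms fell in OGD. miR-341-3p, from the hairpin 6.66 kb upstream, stood at 212 ± 23.7, 202 ± 26.0, 213 ± 29.9 and 185 ± 25.9 CPM (SD, n = 5) in wild-type normoxia, wild-type OGD, ciRS-7 KO normoxia and ciRS-7 KO OGD. Its OGD effects of -0.07 and -0.20 did not pass (limma adjusted p = 0.717 and 0.243). Its rarer partner miR-341-5p did fall, from 7.56 to 3.34 CPM in wild-type and from 7.43 to 3.14 CPM in ciRS-7 KO neurons, with log2 effects of -1.06 and -1.23 (limma adjusted p = 0.0103 and 0.0106). Its mean of 2.38 on the log2 scale is low, and how its fall depends on depth or single libraries was not examined. The 2 arms of miR-1188 averaged under 3 CPM in every group and did not pass. Of the 6 members of the Rian part, 2 fell in each genotype, miR-370-3p itself and miR-341-5p, and 0 rose; of all miRNAs tested, 4.4% and 5.75% passed as lower and 18.7% and 18.8% as higher.

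Further upstream, from hairpins starting 22.9 kb away, both arms of miR-136 had positive effects (0.37 and 0.33 for miR-136-3p, limma adjusted p = 0.0374 and 0.00836, and 0.28 and 0.14 for miR-136-5p, limma adjusted p = 0.171 and 0.304). The overlapping hairpin of miR-3071 gave effects of opposite sign for its arms, -0.28 and -0.62 for miR-3071-3p (limma adjusted p = 0.327 and 0.0183) and 0.60 and 0.75 for miR-3071-5p (limma adjusted p = 0.0540 and 0.0014). Downstream the cluster opens with miR-379, and in its first 2 hairpins, miR-379 and miR-411, one arm passed and the other did not, a difference that was not tested. miR-379-3p fell, with effects of -0.58 and -0.51 (limma adjusted p = 0.00727 and 0.00058), while the more abundant miR-379-5p had effects of -0.23 and -0.26 that did not pass (limma adjusted p = 0.155 and 0.0728). miR-411-3p fell, with effects of -0.90 and -0.84 (limma adjusted p = 3.1e-05 and 8.3e-06), and miR-411-5p had effects of -0.21 and -0.23 that did not pass (limma adjusted p = 0.139 and 0.0618). For miR-299a-3p the effects were 0.48 and 0.44 (limma adjusted p = 0.0362 and 0.0199), and for miR-299a-5p 0.69 and -0.10 (limma adjusted p = 0.0189 and 0.721).

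At a mean of at least 3, the 2 largest decreases and the 2 largest increases of the domain were the same miRNAs in both genotypes; miR-540-5p comes from the Meg3 and Rtl1 antisense side and the other 3 from the Mirg side. miR-410-5p fell from 26.9 ± 7.44 to 2.43 ± 1.40 CPM (SD, n = 5) in wild-type neurons, an effect of -3.32, and had an effect of -3.52 in ciRS-7 KO neurons (limma adjusted p = 3.6e-07 and 1.6e-07). miR-409-3p fell from 1427 ± 133 to 632 ± 66.7 CPM (SD, n = 5) in wild-type neurons, an effect of -1.17, and had one of -1.21 in ciRS-7 KO neurons, about the same size as the fall of miR-370-3p. Above that limit the 2 largest increases were those of miR-540-5p, with effects of 2.42 and 1.80, and miR-485-3p, with effects of 2.07 and 1.90, all of them passing the limma test. miR-540-5p and miR-485-3p averaged under 10 CPM in normoxia. The limit leaves out miR-665-3p (mean 2.56), whose increases of 2.73 and 2.48 were larger (limma adjusted p = 7.7e-07 and 2.9e-07). In wild-type neurons miR-410-5p passes the limit only through its normoxic level, and miR-540-5p and miR-485-3p only through their OGD levels. The ranking, and its likeness between genotypes, therefore depends on the limit.

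**Figure D4:**
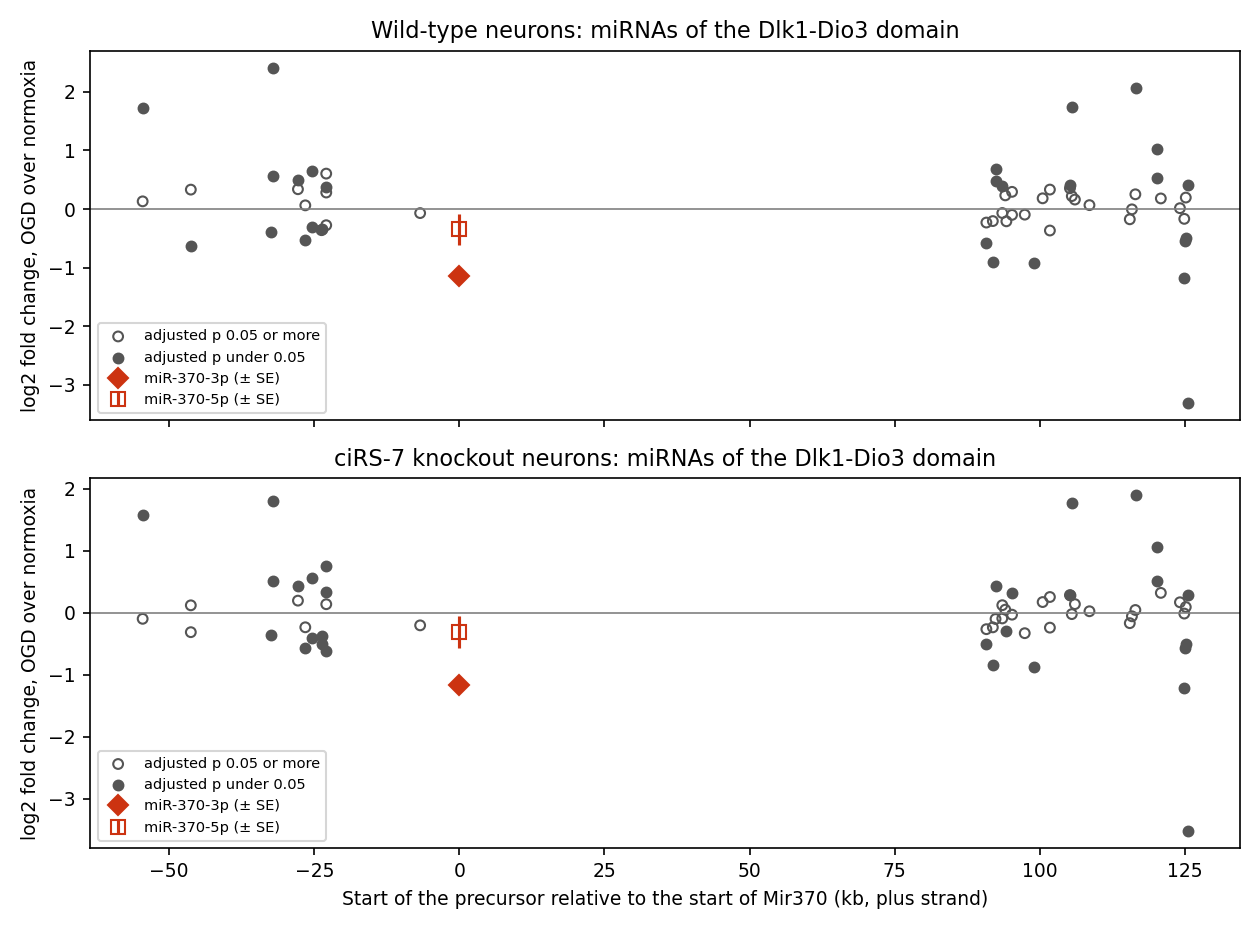
Log2 fold change of OGD over normoxia (y axes) against the distance of each precursor's start from the start of Mir370 in kb (x axis, plus strand) for domain miRNAs with a mean of at least 3 on the log2(CPM + 0.5) scale and a precursor position, and for both arms of miR-370 (red, with SE), in wild-type neurons (top) and ciRS-7 KO neurons (bottom). Filled symbols passed the limma test; miR-370-3p lies at -1.15 and -1.17, and risers and fallers occur on both sides of it.

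Across the 20 libraries, the 5 miRNAs whose log2 level ran closest to miR-370-3p included 3 from the Mirg side of the same domain. As background, 65 of 425 miRNAs with a mean of at least 3 in the wild-type comparison belonged to the domain, 44 of them to its Mirg side. Pearson's r over the 20 libraries, among 423 miRNAs with a mean of at least 3, was 0.983 for miR-409-3p, 0.962 for miR-411-3p and 0.959 for miR-410-5p, followed by miR-125b-1-3p (chromosome 9) at 0.956 and miR-340-3p (chromosome 11) at 0.956. All 5 had negative OGD effects in both genotypes, and these correlations include the step between normoxia and OGD that all libraries share. For miR-370-5p, cut from the same hairpin, r was 0.374. Its mean of 2.96 lies under the limit for the 423, and it rests on 7 to 22 reads per OGD library, so these r are not on equal terms.

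With each library taken as its deviation from its group mean, the order changed. The highest r with miR-370-3p was 0.838 for miR-369-5p, followed by miR-320-3p at 0.771, miR-1198-5p at 0.736, miR-541-5p at 0.726 and miR-382-5p at 0.713. miR-369-5p, miR-541-5p and miR-382-5p belong to the Mirg side of the domain. For miR-370-5p, with its few reads, r was 0.05. The deviations share each library's depth and scaling.

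miR-1193-3p, the miRNA that shares its seed with miR-370-5p, was more abundant than that arm in every group. Its means were 19.1 and 17.6 CPM in wild-type normoxia and OGD and 22.3 and 17.7 CPM in ciRS-7 KO normoxia and OGD. Its OGD effects of -0.10 and -0.33 did not pass (limma adjusted p = 0.747 and 0.0982).

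The 6 markers listed for neurons summed to 292975 to 389896 CPM per library. Most of that was miR-9-5p, at a mean of 266052 CPM in wild-type normoxia beside 3392 CPM of miR-124-3p. From wild-type normoxia to OGD, mean miR-128-3p went from 60839 down to 40381 CPM and mean miR-124-3p up to 5628 CPM. No marker of astrocytes or neural progenitors was listed, so such cells were not checked. Both oligodendrocyte markers together reached at most 6.82 CPM, the 3 myeloid markers 4.39 and the 2 red cell markers 5.10, while the endothelial miR-126a-3p lay between 251 and 378 CPM with overlapping groups. Markers of smooth muscle and fibroblasts, of striated muscle and of liver each summed to between 29.9 and 64.5 CPM. miR-210-3p, a miRNA known to be induced by hypoxia, averaged 18.3 CPM in wild-type normoxia and 108 in wild-type OGD, and 26.0 and 110 CPM in the ciRS-7 KO groups. The first principal component, 83.0% of the variance, separated OGD from normoxia, and wild-type normoxia replicate 5 stood apart from its group at -0.88 against -14.46 to -13.09. That library held 7028 CPM of miR-370-3p, the highest of its group, and without it the wild-type effect was -1.11 (limma adjusted p = 2.2e-08).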

How the data were processed

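Small RNA libraries were size-selected by the submitters, per the labels' protocols. The 6 deposited tables compare pairs of groups and name mouse build mm10, per the submitters' processing notes; aligner, counter and miRNA release are not given in the sources used here. Their values are labelled as log CPM, but the deposited values behave as a score: reads times a library factor, raised to a power of 0.106 to 0.118, with the lowest and highest library of each group pulled 64% of the way to its neighbour. Undoing this gave whole reads for every value (largest distance from a whole number 6.6e-07), and 59070 reads compared between tables showed 0 differences. Totals were 1160582 to 12477032 reads, and CPM used the authors' library factors (effective totals 0.923 to 1.08 times the total). The recovery and the fits were tested on simulated data; the recovery returned every read, and a larger share of the fits' calls was false than their threshold states, which bears on every count of calls.

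limma 3.58.1 (R 4.3.3, trended eBayes) was fitted to log2(CPM + 0.5) of the 10 libraries of a comparison, or of all 20 for the genotype difference in the OGD effect. P-values were two-sided, adjusted by Benjamini-Hochberg over all miRNAs of the table, and called under 0.05. Arm shares were compared by exact two-sided permutation tests (252 splits). Wilson and Poisson intervals cover counting error only, since reads carry no molecular identifiers. The closest pair of replicates still differed beyond sampling noise (chi-square 16.5 per degree of freedom), so no library was counted double.

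Members and lists were chosen with earlier results of these data known. Named miRNAs were both arms, the 3 nearest hairpins on each side with a mean of at least 3, the 2 largest called changes each way in the domain at a mean of at least 3, the 5 most alike by each correlation, the neighbours in level and those sharing a seed; miRNAs named for falling further, the abundant ones of the domain and the Rian part were chosen after their values were seen. Of 107 domain names, 99 matched a RefSeq precursor. Alternatives were other pseudocounts, a filter on low values, 3 scalings, thinning, voom, the deposited values, a replicate block, and leaving out each library.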

Additional observations from a re-analysis of the deposited data

How the results depend on the processing

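The fall of miR-370-3p in OGD kept its direction and its call in both genotypes under all 12 other settings and the 10 fits per genotype that left out a library (-1.21 to -1.11 in wild-type and -1.23 to -1.10 in ciRS-7 KO neurons). Its value was -2.13 and -1.92 on the deposited scale, which is a power of the reads and not a log2 scale. For the rest, where a value changed the cause was not tested. miR-370-5p passed as lower in OGD with centred libraries (-0.90 and -0.82 in wild-type and ciRS-7 KO neurons) and with quantile normalization (-1.01 and -0.87). Its uncalled genotype difference in normoxia changed sign with centring (-0.024), quantile normalization (-0.017), median-of-ratios size factors (-0.0032) and thinning (-0.14), and that in OGD with thinning (-0.074). For miR-370-3p, centring turned the uncalled genotype difference in OGD to 0.030 and that of the OGD effects to 0.053. A mean of at least 3 as filter gave no value for miR-370-5p in the OGD comparisons, between genotypes in OGD, or for the difference of effects, because its mean was below 3.

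Counts of called miRNAs moved more. In wild-type neurons 223 passed with the filter and 693 with voom, and in ciRS-7 KO neurons 784 with voom. Between genotypes 1 passed in normoxia and 2 in OGD after thinning, 33 and 72 on the deposited values, and 4 in OGD in the fit over 20 libraries. On the deposited values the domain had 56 calls in wild-type neurons and 2 and 4 between genotypes in normoxia and OGD.

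Leaving out single libraries gave 0 to 22 calls between genotypes in OGD, the 22 without ciRS-7 KO OGD replicate 5. OGD effects on miR-370-5p ranged from -0.51 to -0.15 in wild-type and -0.49 to -0.11 in ciRS-7 KO neurons. Genotype differences ranged from -0.092 to 0.0057 (normoxia) and -0.11 to 0.017 (OGD) for miR-370-3p, and from -0.081 to 0.096 and -0.15 to 0.24 for miR-370-5p. Differences of the OGD effects ranged from -0.077 to 0.052 and from -0.17 to 0.23. The miR-370-3p share changed by -0.146 to -0.0795 points in wild-type and -0.142 to -0.0735 in ciRS-7 KO neurons with OGD, and by -0.0134 to 0.00567 and -0.0437 to 0.0352 between genotypes.

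Whether the same replicate number pairs libraries is not known. The sample titles use the same numbers in both treatments of a genotype, but no label ties a number to a shared culture. Same-number correlations of deviations were over 0.1 for 4 of 5 numbers in each OGD comparison, with 4 wild-type and 3 ciRS-7 KO numbers correlating best with their own. With the number as a replicate block 389 and 403 miRNAs passed in the 2 OGD comparisons, miR-370-3p kept effects of -1.15 and -1.17, and no call of either arm changed. The block with centred libraries gave miR-370-5p -0.90 and -0.82, which passed, -0.024 between genotypes in normoxia, 0.030 and 0.053 for the miR-370-3p differences between genotypes in OGD and between OGD effects, and 54 wild-type domain calls. miR-370-5p rests on 7 to 22 reads per OGD library.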

Other observations

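Of the 52 domain hairpins with both arms listed, 25 had both arms at a mean of at least 2.9 on the log2(CPM + 0.5) scale, a limit chosen after the values were seen so that miR-370-5p entered. The less abundant arm had the more positive OGD effect in 15 of the 25 in wild-type and in 14 in ciRS-7 KO neurons. The median difference, minor minus major arm, was 0.16 and 0.19, and for miR-370 it was 0.81 and 0.86. miR-127, the most abundant hairpin, showed a gap in the same direction: miR-127-5p had effects of 0.66 and 0.56 where miR-127-3p had -0.31 and -0.40. At the hairpin of miR-410 the arms went the other way, with effects of -3.32 and -3.52 for miR-410-5p and 0.41 and 0.28 for the more abundant miR-410-3p. These differences between arms were not tested.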
